A study of Canis lupus familiaris with 34 samples.

Results

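Collagens are encoded by a large gene family, 1 gene for each chain, and the account given here follows the chain genes through dog osteosarcoma, a bone-forming cancer. Members were the rows of the deposited expression table whose symbol is COL, a type number, the letter A and a chain number. There were 32 such rows among 23988, and 30 of them passed a filter of at least 1 FPKM in at least 2 libraries. FPKM, the number of sequenced fragments divided by transcript length and by library depth, is a level per transcript length, so genes can be set beside each other on it. COL19A1 and COL20A1 did not pass, with highest tumour levels of 0.0267 and 0.124 FPKM. A RefSeq gene table of another dog assembly lists 43 collagen genes with symbols of this form, and 12 of them, COL1A1, COL2A1, COL3A1, COL6A3 and COL10A1 included, were not analysed here. Sums over the chains cover the 32 rows alone.

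RNA sequencing was done on 34 dog libraries, all labelled as Golden Retriever although the series' design text names Rottweilers as well. Total RNA was used with TruSeq RNA v2 libraries, and no treatment, age or sex is given. The groups were 2 cell lines of osteosarcoma (OSCA.8, OSCA.78), 1 metastasis (DOS.6M, site not stated), 1 osteoblast culture (CNOB) and 30 libraries of primary bone tumour. The lines came from earlier primary tumours, per the series' design text, and nothing says how many dogs gave the osteoblast culture or at which passage any culture was taken. Titles share a number between OSCA.8 and DOS.8, OSCA.78 and DOS.78, and DOS.6M and DOS.6, but no label says that these come from the same dog. Nothing says that the tumour libraries are from separate dogs either, so p-values measure the spread between these libraries.

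Collagen chains are hydroxylated in the endoplasmic reticulum, wind into a triple helix and are secreted, after which the fibril-forming types lose their propeptides and are cross-linked. Type I makes up most of the organic matrix of bone, types II, IX and XI belong to cartilage fibrils, type IV is the sheet of basement membranes around blood vessels, and the FACIT types sit on the surface of fibrils. Osteosarcoma is defined by tumour cells that lay down bone matrix, and it can also contain cartilage and fibrous areas.

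Summed FPKM per library ran between 479053 and 1418310 (median 623084), the highest being the osteoblast culture, and 15328 to 17711 genes were above 0. Sequencing depth is unknown, because the values are not counts. The libraries titled DOS.46.2 and DOS.46 carry a common number and differed by a median of 0.0870 log2 units over the collagens, so they were averaged and counted as 1 tumour, leaving 29. DOS.100 and DOS.32 carry different numbers but were as alike, with a median difference of 0.0801 log2 units over the collagens and r = 0.844 between their deviations from the tumour mean over all genes. DOS.110 and DOS.115 followed with r = 0.671, whereas the median pair of tumour libraries had r = -0.039. Results that rest on the tumours were therefore also computed without DOS.32 and DOS.115. DOS.6M was closest to DOS.6 among the tumours (r = 0.510, next highest 0.195). Of 6 bone-forming cell markers in the table, 3 were under 1 FPKM in each line, and their sum was 25.05 and 16.7 FPKM in OSCA.8 and OSCA.78, against 117 to 8322 FPKM in tumours. The osteoblast culture had a marker sum of 41.3 FPKM, also below every tumour. IBSP (6.95 FPKM) and SPP1 (4.38 FPKM) lay below every tumour in the culture, whereas SP7 (24.7 FPKM), DMP1 (0.429 FPKM) and PHEX (0.0753 FPKM) lay within the tumours' range. The 5 pericyte and smooth muscle markers summed to 651 FPKM in the culture, against 40.8 to 495 FPKM in tumours, and they were divided. NOTCH3 (285 FPKM) and KCNMB1 (211 FPKM) lay above every tumour, and MCAM (155 FPKM) lay within the tumours' range. RGS5 (0.0663 FPKM) and MYH11 (0.424 FPKM) lay below every tumour. Of 4 skeletal muscle markers, ACTA1 stood at 708 FPKM in the culture, above every tumour, CKM at 0.0979 FPKM, and TNNT3 and MYOG at 0. Endothelial markers were near 0 in all 3 cultures, and all 6 of them were under 1 FPKM in each culture.

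**Figure D1:**
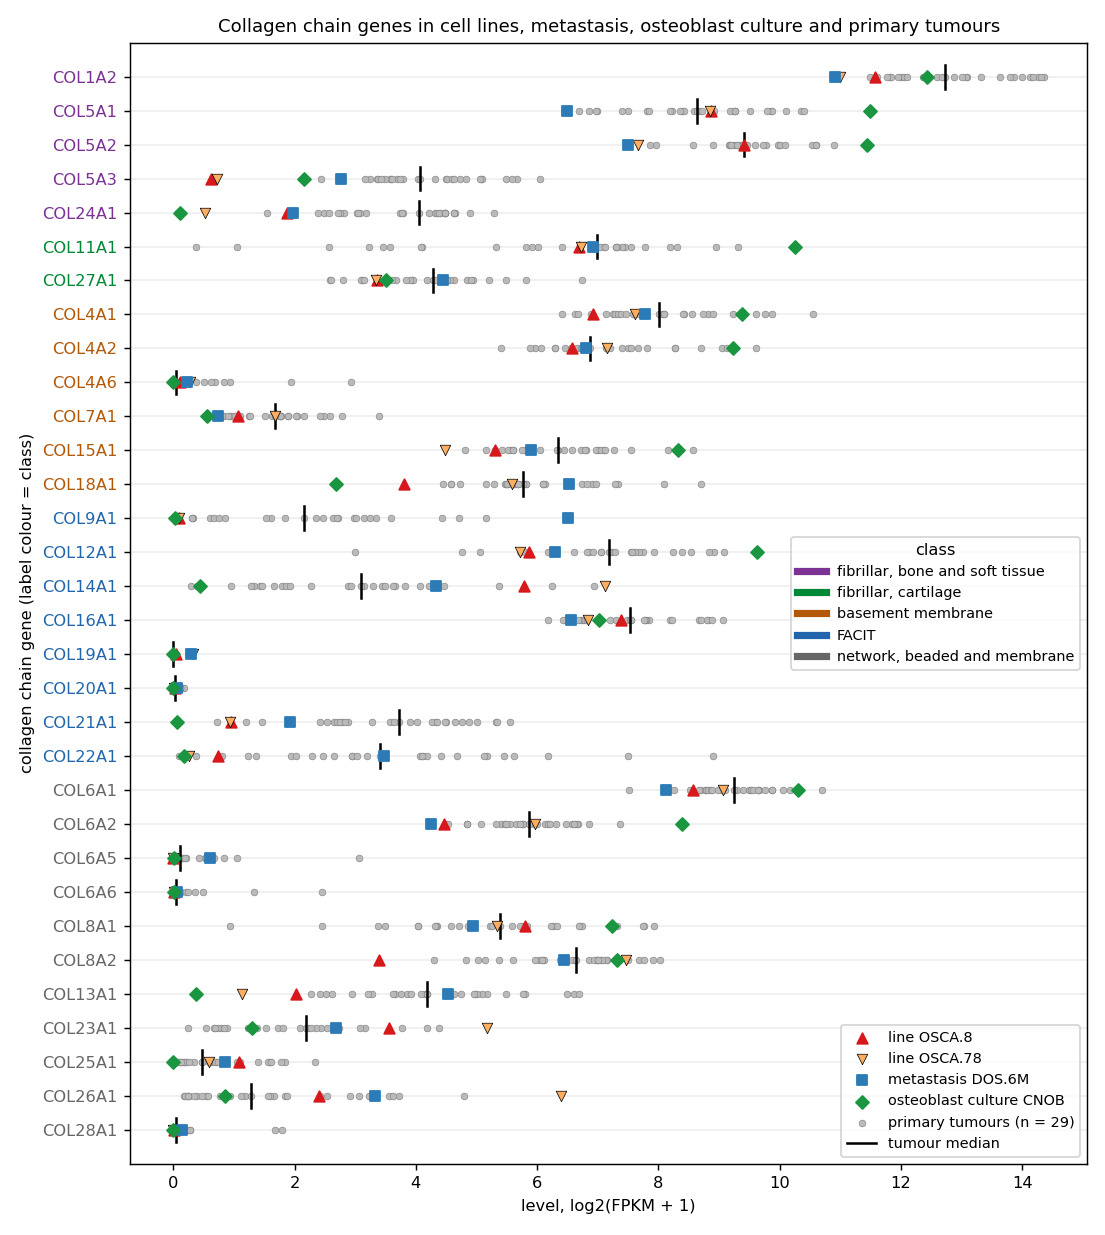
Level of each collagen chain gene (rows, coloured by class) in the cell lines, the metastasis, the osteoblast culture and the primary tumours, on a log axis of FPKM. COL1A2 stands above the other chains in tumours, and COL11A1 and COL22A1 have the widest spread.

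The 32 chains, which do not include COL1A1 or COL3A1, made up a smaller share of the summed FPKM in the cultures and the metastasis than in the median tumour. Of the summed FPKM, the 32 chains took 0.979% in OSCA.8, 0.775% in OSCA.78, 0.530% in the metastasis and 1.19% in the osteoblast culture, against a lowest of 0.679%, a median of 1.80% and a highest of 4.20% in tumours. The metastasis lay below every tumour, and the other 3 libraries lay within the tumours' range. The osteoblast culture had the highest summed FPKM (1418310, against a median of 623084 over all libraries). Its smaller share therefore does not mean lower FPKM of the chains. Without DOS.32 and DOS.115 the tumour median was 1.72% and the range was the same. Much of this share is COL1A2, the α2 chain of type I collagen, which held 57.02% of the sum over these 32 rows in OSCA.8, 45.7% in OSCA.78, 54.0% in the metastasis and 32.9% in the osteoblast culture, against 42.5% to 88.9% in tumours (median 69.0%). By level, COL1A2 ranked 1 to 35 among all genes of a tumour library (median rank 3), 9 in OSCA.8, 16 in OSCA.78, 48 in the metastasis and 33 in the osteoblast culture. These are descriptions without a test.

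The 2 lines were compared with the 29 tumours to ask which chains differ between cultured osteosarcoma cells and whole tumour tissue. Of the 30 chains, 4 were lower in the lines (COL5A3, COL24A1, COL13A1 and COL21A1), 3 were higher (COL14A1, COL23A1 and COL26A1) and 23 did not pass the test. Over all 15165 genes tested, 16.4% were called in either direction, 8.49% higher and 7.92% lower, so the collagen count of 7 stands beside a large background. The median difference was -0.54 log2 units over the 30 chains and -0.05 over all genes. The test was limma on log2(FPKM + 1), two-sided, with Benjamini-Hochberg adjustment over all 15165 genes and a threshold of 0.05. With a pseudocount of 0.1 FPKM the 3 higher chains missed the threshold although their differences were larger, at 3.85 log2 units for COL14A1, 2.83 for COL23A1 and 3.54 for COL26A1 (limma adjusted p = 0.0513, 0.0627 and 0.0809). With only 2 lines beside 29 tumours, the spread behind these p-values is mostly that between tumours, so they say little about how lines vary. Fits that leave out a line set a lone library against the tumours and assume that it varies as they do. With upper quartile scaling the split over all genes was 962 higher and 1388 lower, against 1288 and 1201 as deposited. In bulk tissue, fewer cells of a type and less RNA per cell cannot be told apart.

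**Figure D2:**
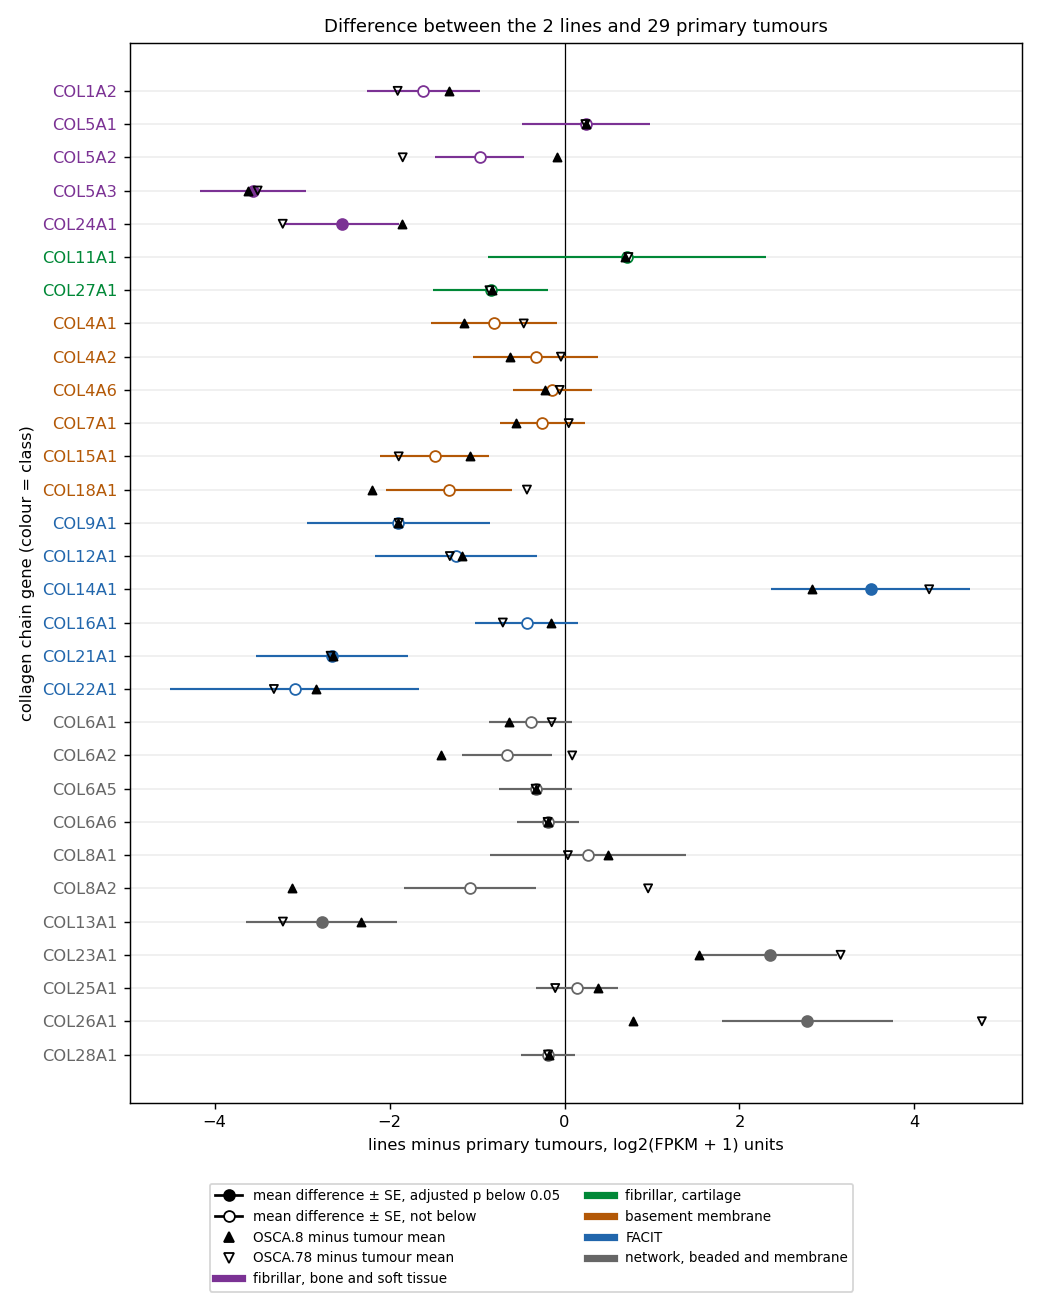
Difference in log2(FPKM + 1) between the lines and the 29 primary tumours for the 30 chains past the filter, with the limma standard error as a bar and each line as a triangle; filled circles have an adjusted p below 0.05. The filled circles are 4 chains left of 0 and 3 right of it, and for COL26A1 and COL8A2 the 2 lines lie far apart.

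Among the fibrillar chains of bone and soft tissue, the minor chains fell in the lines and the abundant ones did not pass the test. COL5A3, the α3 chain of type V collagen, had 0.529 FPKM in OSCA.8 and 0.650 FPKM in OSCA.78, against a lowest of 4.40, a median of 15.7 and a highest of 65.0 FPKM in tumours. Both lines lay below every tumour, and COL5A3 fell by 3.56 ± 0.61 log2 units (SE, limma adjusted p = 1.1e-04). With OSCA.78 left out its difference was -3.62 log2 units, and with OSCA.8 left out -3.51 (limma adjusted p = 0.0150 and 0.00745). COL24A1, a fibrillar chain expressed in developing bone in mice, had 2.68 FPKM in OSCA.8 and 0.436 FPKM in OSCA.78, against 1.93, 15.5 and 37.9 FPKM as the lowest, median and highest tumour. OSCA.78 lay below every tumour and OSCA.8 above a single one, and COL24A1 fell by 2.54 ± 0.65 log2 units (SE, limma adjusted p = 0.00696). With OSCA.78 left out, its difference was -1.86 log2 units (limma adjusted p = 0.368).

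COL1A2 had 3044 FPKM in OSCA.8 and 2031 FPKM in OSCA.78, against 2870, 6801 and 21005 FPKM as the lowest, median and highest tumour. OSCA.8 stood above a single tumour and OSCA.78 below all of them, and the difference of -1.62 ± 0.64 log2 units (SE) missed the threshold (limma adjusted p = 0.0812). COL5A1 and COL5A2 encode the α1 and α2 chains of type V, which sits inside type I fibrils and helps set their diameter. COL5A1 had 466 and 463 FPKM in OSCA.8 and OSCA.78, against 102, 395 and 1354 FPKM in tumours, in the middle of the tumours' range. COL5A2 had 683 FPKM in OSCA.8 and 201 FPKM in OSCA.78, against 232, 680 and 1895 FPKM in tumours, so the lines differed from each other and OSCA.78 alone lay below every tumour.

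Neither fibrillar chain of cartilage passed the test in the lines. COL11A1, the α1 chain of type XI, which controls the width of cartilage fibrils, had 102 and 104 FPKM in OSCA.8 and OSCA.78, against 0.290, 126 and 633 FPKM in tumours. The lines lay near the middle of a very wide range. COL27A1, a fibrillar chain of growth cartilage, had 9.27 and 9.08 FPKM in OSCA.8 and OSCA.78, against 5.02, 18.5 and 106 FPKM in tumours.

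None of the 6 basement membrane chains passed the test. COL4A1 and COL4A2, which together build the common type IV molecule, had 121 and 94.5 FPKM in OSCA.8, while OSCA.78 had 194 and 142 FPKM. The tumours had 84.5, 257 and 1496 FPKM of COL4A1 and 41.4, 115.4 and 776 FPKM of COL4A2 as the lowest, median and highest. Both chains lay inside the tumours' range in both lines, while CDH5, the endothelial cadherin, stood at 0.0748 FPKM in OSCA.8 and 0.0685 FPKM in OSCA.78, against 5.36 to 280 FPKM in tumours. COL15A1 and COL18A1, the multiplexins of vessel basement membranes, had 38.5 and 13.03 FPKM in OSCA.8, while OSCA.78 had 21.4 and 47.0 FPKM. The tumours had medians of 80.3 FPKM of COL15A1 and 53.1 FPKM of COL18A1. COL15A1 in OSCA.78 and COL18A1 in OSCA.8 lay below every tumour. COL7A1, the anchoring fibril chain of epithelial basement membranes, and COL4A6 were low throughout, with tumour medians of 2.199 and 0.0269 FPKM.

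Of the 6 FACIT chains past the filter, COL14A1 rose and COL21A1 fell. COL14A1, a fibril-associated chain of mature connective tissue, had 54.1 FPKM in OSCA.8 and 138 FPKM in OSCA.78, against 0.229, 7.56 and 122 FPKM in tumours. OSCA.78 lay above every tumour, OSCA.8 lay above all but 2, and COL14A1 rose by 3.50 ± 1.14 log2 units (SE, limma adjusted p = 0.0327). COL21A1, a FACIT chain found in vessel walls, had 0.940 and 0.902 FPKM in OSCA.8 and OSCA.78, against 0.649, 12.1 and 46.1 FPKM in tumours. Each line lay above a single tumour, and COL21A1 fell by 2.66 ± 0.87 log2 units (SE, limma adjusted p = 0.0326). With 1 line left in the fit both missed the threshold. The COL14A1 difference was 2.83 log2 units in OSCA.8 alone and 4.17 in OSCA.78 alone (limma adjusted p = 0.478 and 0.0786), and that of COL21A1 was -2.65 and -2.67 (limma adjusted p = 0.336 and 0.143), about as large as with both lines. With quantile normalisation COL21A1 had a limma adjusted p of 0.0506.

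The other FACIT chains did not pass. COL16A1 had 166 and 112.99 FPKM in OSCA.8 and OSCA.78, against a tumour median of 185 FPKM, and COL12A1, which links fibrils in tendon and bone, had 57.04 and 51.6 FPKM against 145 FPKM. COL22A1, a chain of tissue junctions such as the muscle-tendon junction, had 0.661 and 0.192 FPKM in OSCA.8 and OSCA.78, against 0.0646, 9.66 and 479 FPKM in tumours. Its difference was -3.08 ± 1.42 log2 units (SE, limma adjusted p = 0.137). COL9A1, the α1 chain of type IX on cartilage fibrils, stood at 0.0614 and 0.0657 FPKM in OSCA.8 and OSCA.78, against a tumour range of 0 to 34.8 FPKM, and it did not pass the test (limma adjusted p = 0.218).

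Of the 11 network, beaded and membrane chains, COL23A1 and COL26A1 rose and COL13A1 fell. COL23A1, a transmembrane collagen, had 10.7 and 35.02 FPKM in OSCA.8 and OSCA.78, against 0.187, 3.54 and 19.8 FPKM in tumours. OSCA.78 lay above every tumour and OSCA.8 above all but 3, a rise of 2.34 ± 0.77 log2 units (SE, limma adjusted p = 0.0347), and without OSCA.78 the difference was 1.53 log2 units (limma adjusted p = 0.610). COL26A1, a secreted collagen first described in reproductive tissue of mice, had 4.30 FPKM in OSCA.8 and 83.1 FPKM in OSCA.78, against 0.127, 1.43 and 26.8 FPKM in tumours. OSCA.8 lay within the tumours and OSCA.78 above them all, so its rise of 2.78 ± 0.97 log2 units (SE, limma adjusted p = 0.0466) rests on OSCA.78, without which it was 0.78 log2 units with an adjusted p of 0.860. Without DOS.32 and DOS.115 the adjusted p of COL26A1 was 0.0567, and the other 6 calls held. Its call was also lost with no filter, with both scalings and with DOS.46 and DOS.46.2 kept apart (limma adjusted p = 0.0507 to 0.0617).

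COL13A1, a transmembrane collagen of cell adhesion sites and bone, had 3.05 and 1.19 FPKM in OSCA.8 and OSCA.78, against 3.83, 17.2 and 102 FPKM in tumours. Both lines lay below every tumour, as for COL5A3 but no other chain, and 7.3% of all genes lay so. In the other direction, 0 chains had both lines above every tumour, where 4.04% of all genes did. COL13A1 fell by 2.78 ± 0.86 log2 units (SE, limma adjusted p = 0.0251), and its difference was -2.33 log2 units without OSCA.78 and -3.22 without OSCA.8 (limma adjusted p = 0.421 and 0.0728). Of the abundant network chains, COL6A1 had 380 and 532 FPKM in OSCA.8 and OSCA.78, against 182, 608 and 1657 FPKM in tumours. COL6A2 had 21.1 and 61.3 FPKM in OSCA.8 and OSCA.78, against 21.4, 57.2 and 164 FPKM in tumours. COL8A1 had 54.8 and 39.7 FPKM in OSCA.8 and OSCA.78, against 0.902, 40.9 and 241 FPKM in tumours, so both lines lay inside a wide range. COL8A2, a short-chain collagen of the eye and vessel wall, had 9.49 FPKM in OSCA.8, below every tumour, and 176 FPKM in OSCA.78, within the tumour range of 18.6 to 259 FPKM. COL6A5, COL6A6, COL25A1 and COL28A1 had tumour medians under 1 FPKM and did not pass the test.

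The 4 lower chains were not the only values that were lower in the lines than in the tumours. All 6 endothelial markers and all 7 macrophage markers in the table fell in the lines, with summed levels of 0.383 and 0.464 FPKM of endothelial markers in OSCA.8 and OSCA.78, against 82.7 to 2334 FPKM in tumours. Summed macrophage markers stood at 1.47 and 2.01 FPKM in the lines, against 79.2 to 1475 FPKM in tumours, and 4 of 6 bone-forming cell markers fell. The part of these cell types in the fall of COL5A3, COL24A1, COL13A1 and COL21A1 was not tested.

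The metastasis, a single library with no test, was compared with the tumours by a rule of at least 2 log2 units from the tumour mean and a level outside every tumour. By that rule 1 chain was higher and 2 were lower, where 1.38% of all genes were higher and 0.396% lower. COL9A1 stood at 89.8 FPKM in the metastasis and 11.01 FPKM in DOS.6, against 0, 3.45 and 34.8 FPKM as the lowest, median and highest tumour, a difference of 4.52 log2 units from the tumour mean. It was above every tumour, and it was the only chain past 2 log2 units against DOS.6 alone (2.92 log2 units). Cartilage markers differed among themselves in the metastasis. MATN4, a cartilage matrilin, stood at 251 FPKM in the metastasis, above every tumour (maximum 105.04 FPKM), whereas ACAN (74.0 FPKM), COMP (6.73 FPKM) and EPYC (0.0155 FPKM) lay below the tumour medians of 96.9, 22.7 and 0.0829 FPKM. HAPLN1 (27.9 FPKM), LECT1 (48.5 FPKM), MATN3 (4.47 FPKM) and MATN1 (0.766 FPKM) lay above the tumour medians of 18.9, 4.14, 2.27 and 0.0442 FPKM. In DOS.6 HAPLN1 had 63.7 FPKM. The 8 cartilage markers in the table summed to 413 FPKM in the metastasis, inside the tumour range of 22.5 to 1123 FPKM, with none at 0. The part of cartilage cells in the COL9A1 level was not tested.

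COL5A1 had 89.1 FPKM in the metastasis, against a lowest tumour of 102 FPKM, and COL5A2 had 180 FPKM against 232 FPKM. Their differences from the tumour mean were -2.12 and -2.01 log2 units, and under upper quartile scaling, and without DOS.32 and DOS.115, COL5A2 no longer met the rule. COL1A2, at 1930 FPKM, and COL6A2, the α2 chain of type VI, at 18.1 FPKM, were also below every tumour, with differences of -1.98 and -1.62 log2 units from the mean. With quantile normalisation COL1A2 met the rule too. As deposited, this made 4 of 30 chains below every tumour, where 3.53% of all genes were, and 1 above, where 5% were. The 4 fibroblast markers in the table summed to 114.95 FPKM in the metastasis, against 112.4, 1535 and 5723 FPKM as the lowest, median and highest tumour, with none at 0. Singly, POSTN (21.4 FPKM), FAP (11.1 FPKM), LUM (52.0 FPKM) and PDGFRA (30.5 FPKM) each lay within the tumours' range. The tumour medians were 321, 32.9, 503 and 38.0 FPKM, so PDGFRA was near its median, and it had 24.2 FPKM in DOS.6. The part of fibroblasts in the levels of these chains was not tested.

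The osteoblast culture, again a single library with no test, stood above every tumour in COL5A1, COL5A2, COL11A1, COL12A1 and COL6A2 and below every tumour in 6 other chains. The 6 FACIT chains past the filter had a median difference of -2.24 log2 units from the tumour mean, and COL12A1 was the one among them that stood above. By the same rule 4 chains were higher and 5 lower, where 8.87% of all genes were higher and 5.33% lower. COL5A1 had 2860 FPKM in the culture, against 102, 395 and 1354 FPKM as the lowest, median and highest tumour, and COL11A1 had 1219 FPKM against 0.290, 126 and 633 FPKM. COL12A1 had 793 FPKM against a tumour maximum of 540 FPKM, and COL6A2 had 333 FPKM against 164 FPKM. These lay 2.86, 4.26, 2.61 and 2.51 log2 units above the tumour mean. COL5A2, at 2789 FPKM, was also above every tumour, which makes 5 of 30 chains above every tumour where 22% of all genes were. Scaling changed these calls: the median over all genes of the culture minus the tumour mean was -0.14 log2 units as deposited, -0.49 with upper quartile scaling and -0.02 with quantile normalisation. Of the 4 higher calls, 2 (COL5A1 and COL11A1) were left with upper quartile scaling and 0 with quantile normalisation. Without DOS.32 and DOS.115 the 9 calls of the culture were the same.

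Of the 5 lower calls in the culture, all 5 were left with upper quartile scaling and 4 with quantile normalisation. COL24A1 had 0.0789 FPKM, COL21A1 0.0438 FPKM and COL13A1 0.296 FPKM in the osteoblast culture, against tumour minima of 1.93, 0.649 and 3.83 FPKM. COL18A1 had 5.44 FPKM against a tumour minimum of 20.8 FPKM, and COL5A3 had 3.43 FPKM against 4.40 FPKM. The differences from the tumour mean were -3.63 for COL24A1, -3.54 for COL21A1, -3.97 for COL13A1, -3.33 for COL18A1 and -2.08 log2 units for COL5A3, and COL5A3 was the call lost with quantile normalisation. COL7A1, at 0.463 FPKM, was also below every tumour, which makes 6 of 30 chains where 19.5% of all genes were. The cell lines and the culture were set against the same tumour libraries. COL1A2 was 5530 FPKM in the culture and lay within the tumours' range. COL4A1 was 663 FPKM and COL4A2 596 FPKM, inside the tumours' range while CDH5 was 0.284 FPKM.

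Among the 29 tumours, many collagen chains varied widely. Of the 30 chains, 14 were in the 10% of genes with the largest SD of log2(FPKM + 1), where 10% is the background by construction, and 16 were without DOS.32 and DOS.115. With no filter 18 chains, and with a pseudocount of 0.1 FPKM 11 chains, were in the top 10%. The median SD was 0.96 log2 units for the chains and 0.54 over all genes. The chains were not matched with genes of like level, and adding 1 FPKM before the log shrinks the SD of genes near 0 FPKM. The most variable were COL11A1 (SD 2.28), COL22A1 (SD 2.04), COL14A1 (SD 1.64), COL8A1 (SD 1.62), COL9A1 (SD 1.52) and COL12A1 (SD 1.35), and COL6A1 (SD 0.67) and COL5A2 (SD 0.69) varied least among the abundant ones. COL22A1 ranged from 0.0646 FPKM in DOS.75 to 479 FPKM in DOS.81, and COL11A1 from 0.290 FPKM in DOS.101 to 633 FPKM in DOS.75. COL8A1, a short-chain collagen of vessel walls and cornea, ranged from 0.902 FPKM in DOS.101 to 241 FPKM in DOS.75. COL14A1 was highest in DOS.115 (122 FPKM) and DOS.110 (74.5 FPKM), which are the alike pair named above. DOS.81 was the highest tumour for 6 chains and DOS.75 for 5.

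**Figure D3:**
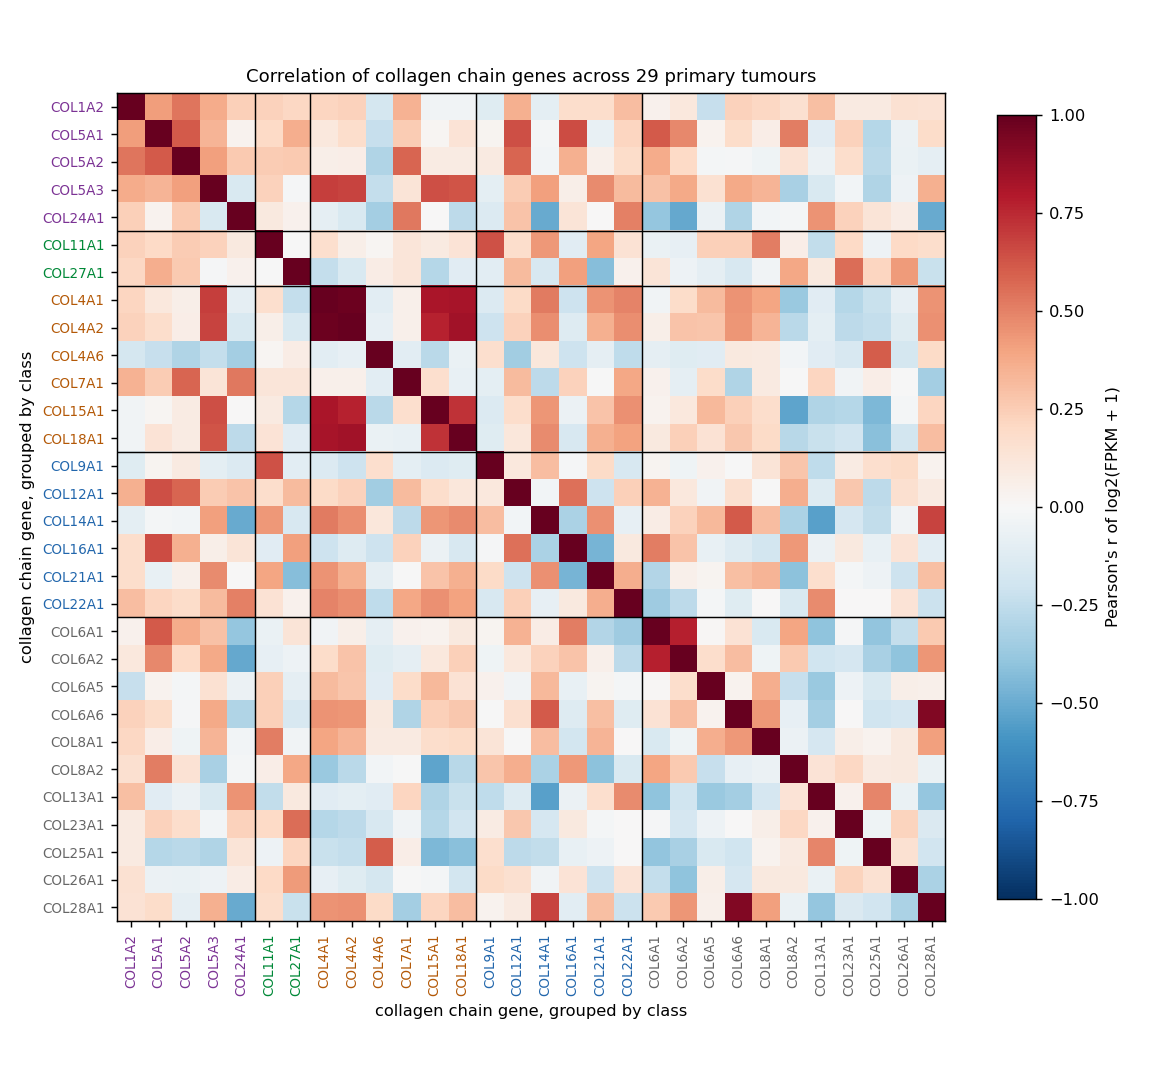
Pearson r of log2(FPKM + 1) across the 29 primary tumours for every pair of the 30 chains, ordered by class. The block of COL4A1, COL4A2, COL15A1 and COL18A1 stands out, and of the 435 pairs 28 passed the permutation test described in the text.

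Chains were paired with the chains they assemble with, and with markers of cells that make them, across tumours. Of 42 pairs listed, 16 could be computed, and 11 passed by Pearson's r, 10 of them by Spearman's rho as well (permutation test, 100000 resamples, two-sided, Benjamini-Hochberg over the 16). Raw p-values of the 11 pairs lay between 1e-05, the smallest that the permutations can give, and 0.0249. COL4A1 and COL4A2 had r = 0.978 and rho = 0.969 across 29 tumours (permutation adjusted p = 2.67e-05 and 4e-05), and r = 0.968 once the 2 tumours with the most extreme COL4A1 levels were left out. COL6A1 and COL6A2, which share type VI microfibrils, had r = 0.780 and rho = 0.747 (permutation adjusted p = 2.67e-05 and 6.4e-05), and r = 0.760 without 2 tumours. COL5A1 and COL5A2 had r = 0.617 and rho = 0.521 (permutation adjusted p = 4.98e-04 and 0.00682), and r = 0.677 without 2. In the RefSeq table COL4A1 neighbours COL4A2 and COL6A1 neighbours COL6A2, and COL6A5 neighbours COL6A6, a pair with r = 0.038. COL6A5 and COL6A6 had tumour medians of 0.0790 and 0.0280 FPKM, and each reached 1 FPKM in 2 tumours. At such levels their r cannot show whether they move together. COL15A1 and COL18A1 had r = 0.723 and rho = 0.601 (permutation adjusted p = 1.14e-04 and 0.00164), and r = 0.559 without 2. COL8A1 and COL8A2, which can share type VIII networks, had r = -0.057 and rho = -0.061 (permutation adjusted p = 0.820 and 0.802).

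The ratio of partner levels varied little between tumours for type IV (SD 0.22 log2 units) and much more for type VIII (SD 2.07). COL4A1 over COL4A2 was 1.27 in OSCA.8, 1.37 in OSCA.78, 1.98 in the metastasis and 1.11 in the osteoblast culture, against 1.26, 1.87 and 2.55 as the lowest, median and highest tumour. COL8A1 over COL8A2 was 5.78, 0.226, 0.346 and 0.944 in these 4 libraries in the same order, against 0.00783, 0.355 and 3.18 in tumours. COL6A1 over COL6A2 was 18.02, 8.67, 15.4 and 3.78 against 6.99, 9.14 and 23.9 in tumours, and COL5A1 over COL5A2 was 0.682, 2.30, 0.494 and 1.03 against 0.144, 0.494 and 1.70. The osteoblast culture lay outside the tumours for type IV and type VI, OSCA.78 for type V and OSCA.8 for type VIII.

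**Figure D4:**
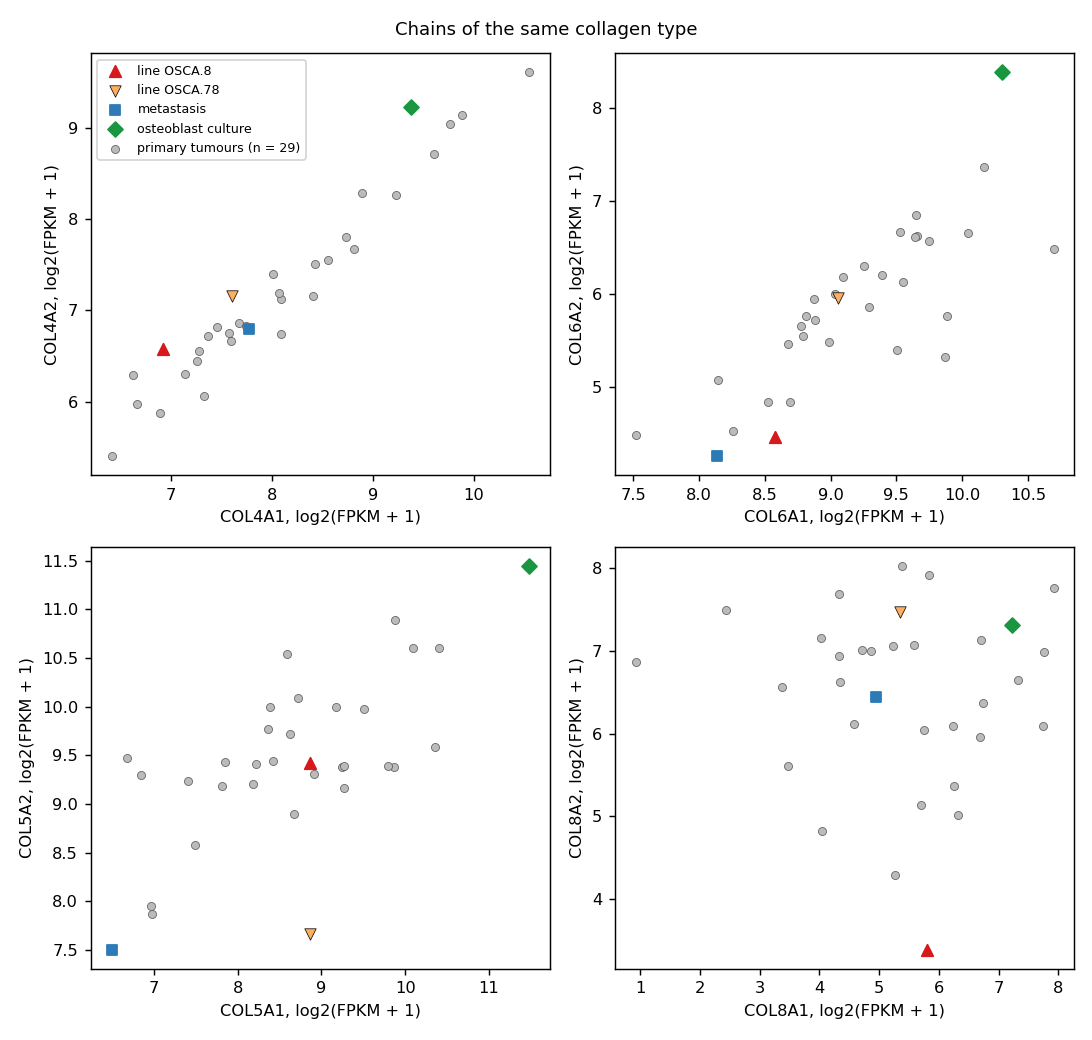
Level of 1 chain against that of its partner, as log2(FPKM + 1), for the cell lines, the metastasis, the osteoblast culture and the 29 tumours. Points for COL4A1 and COL4A2 follow a narrow line (r = 0.978 over tumours), and those for COL8A1 and COL8A2 do not (r = -0.057).

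Vessel-associated chains moved with vessel markers in tumours. COL4A1 and CDH5 had r = 0.935 and rho = 0.929 (permutation adjusted p = 2.67e-05 and 4e-05) and r = 0.903 without 2 tumours. COL4A1 also correlated with PECAM1, an endothelial adhesion molecule (r = 0.886, rho = 0.857), and with RGS5, a pericyte marker (r = 0.802, rho = 0.766), each with a permutation adjusted p of 2.67e-05 for r and 4e-05 for rho, and r = 0.837 and 0.761 without 2 tumours. COL15A1 and PLVAP, a protein of fenestrated endothelium, had r = 0.788 and rho = 0.691 (permutation adjusted p = 2.67e-05 and 3.2e-04), and r = 0.649 without 2. COL18A1 and PECAM1 had r = 0.693 and rho = 0.661 (permutation adjusted p = 1.4e-04 and 5.03e-04), and r = 0.615 without 2. In the cultures, 121, 194 and 663 FPKM of COL4A1 stood beside 0.0748, 0.0685 and 0.284 FPKM of CDH5 in OSCA.8, OSCA.78 and the osteoblast culture. The 5 pericyte and smooth muscle markers summed to 21.3, 72.1 and 651 FPKM in these cultures, against 40.8 to 495 FPKM in tumours, with RGS5 at 0.0325, 0.0345 and 0.0663 FPKM. The part of these cell types in the COL4A1 level was not tested.

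**Figure D5:**
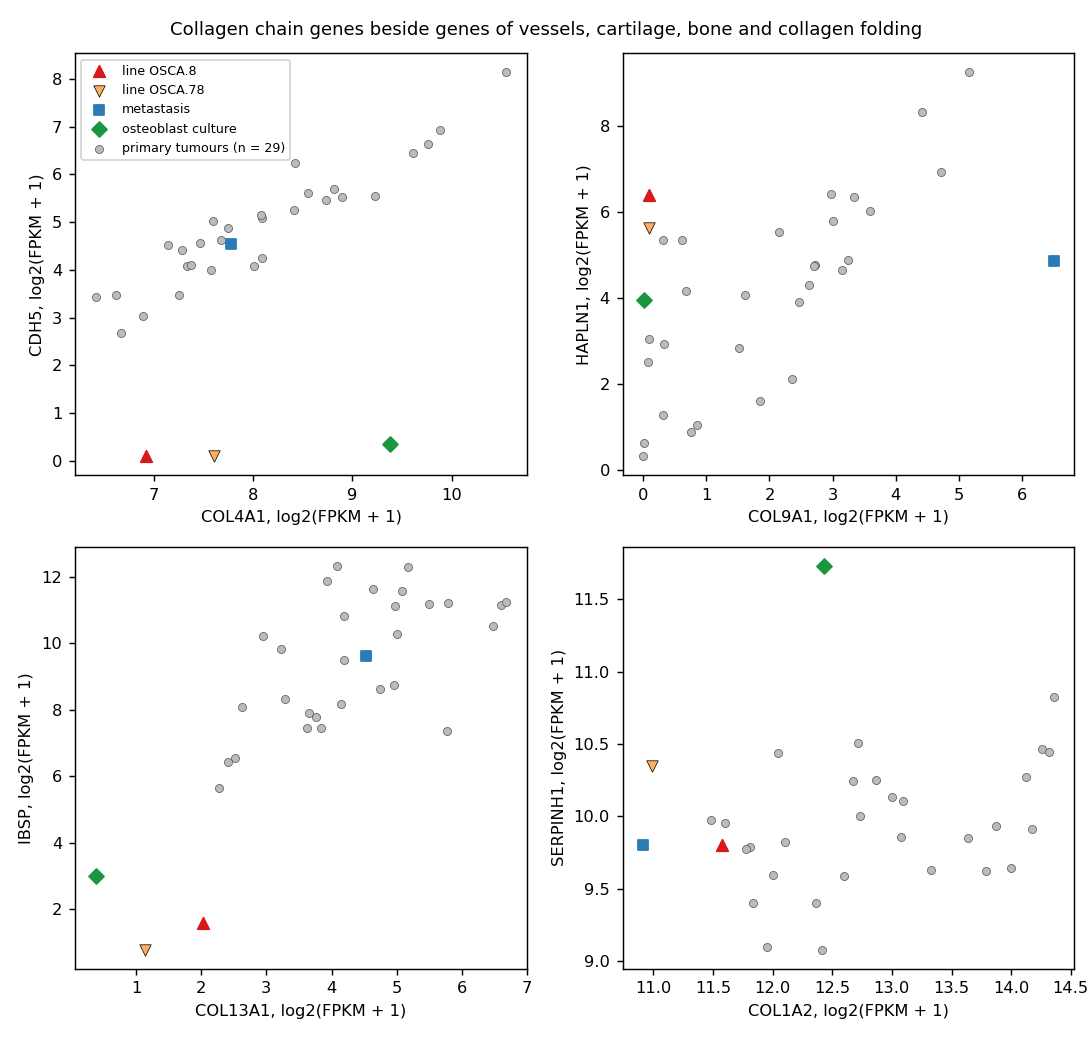
Level of a collagen chain against that of a marker gene, as log2(FPKM + 1), for the cell lines, the metastasis, the osteoblast culture and the 29 tumours. Tumours line up for COL4A1 with CDH5 (r = 0.935), and the 3 cultures lie at CDH5 levels below every tumour.

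For other chains the pairs were mixed. COL13A1 and IBSP, the gene of bone sialoprotein, had r = 0.601 and rho = 0.600 (permutation adjusted p = 0.00122 and 0.00154) and r = 0.572 without 2 tumours. COL11A1 and POSTN had r = 0.417 and rho = 0.343 (permutation adjusted p = 0.0362 and 0.101). Without the 2 tumours of most extreme COL11A1 level r was 0.228 (permutation adjusted p = 0.366). Those were its lowest tumours, DOS.101 (0.290 FPKM) and DOS.76 (1.07 FPKM), and leaving them out also narrows the range of COL11A1, which can lower r. Without DOS.32 and DOS.115 this pair had r = 0.481 and rho = 0.424 (permutation adjusted p = 0.0160 and 0.0412). The other 10 passing pairs also passed without DOS.32 and DOS.115, with r between 0.529 and 0.976 and a permutation adjusted p of at most 0.00771. COL12A1 with COL14A1, COL12A1 with POSTN, COL11A1 with COL5A2 and COL22A1 with THBS4 did not pass. Pairs with COL1A1 or COL2A1 could not be computed, so COL1A2 and COL9A1 took their place in 10 pairs chosen after the rows were seen, of which 5 passed. Of these 5, COL9A1 with ACAN, COL1A2 with COL5A1 and COL1A2 with SERPINH1 did not pass without the 2 farthest tumours. COL9A1 and HAPLN1, the cartilage link protein, had r = 0.789 and rho = 0.764 (permutation adjusted p = 1e-04 for both) and r = 0.721 without 2, and COL9A1 and COL11A1 had r = 0.636 and rho = 0.635 (permutation adjusted p = 0.00125 and 0.0019) and r = 0.636 without 2. COL1A2 with SERPINH1, a collagen chaperone, had r = 0.422 and rho = 0.428 (permutation adjusted p = 0.0476 and 0.0432), r = 0.275 without 2 tumours and a permutation adjusted p of 0.0545 without DOS.32 and DOS.115, where COL1A2 with COL5A1 had 0.0560. COL1A2 with IBSP missed by r (0.364) but not by rho (0.451, permutation adjusted p = 0.0887 and 0.0418), and had r = 0.295 without 2 tumours. Without DOS.32 and DOS.115 it had r = 0.479 (permutation adjusted p = 0.0322).

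Over all 435 pairs of chains, a family chosen after the data were seen, 28 passed by Pearson's r (permutation, adjusted over 435), 26 positive and 2 negative. Of these, 10 also passed by Spearman's rho and without the 2 farthest tumours. Without DOS.32 and DOS.115, 26 pairs passed, of which 23 were shared with the 28. COL5A3 correlated with COL4A1 (r = 0.688), COL4A2 (0.674), COL15A1 (0.644) and COL18A1 (0.629) with a permutation adjusted p of 0.00391, 0.00387, 0.00569 and 0.00819, and by Spearman's rho all 4 passed too (permutation adjusted p = 0.00652 to 0.0240). Without the 2 tumours of most extreme COL5A3 level, r was 0.567, 0.540, 0.566 and 0.511 (permutation adjusted p = 0.0601, 0.0840, 0.0601 and 0.118). Without DOS.32 and DOS.115 all 4 passed by Pearson's r (permutation adjusted p = 0.0107 to 0.0213), whereas by Spearman's rho the pairs with COL4A1 and COL15A1 passed (0.0152 and 0.0182) and those with COL4A2 and COL18A1 did not (0.0507 and 0.0684). COL5A1 correlated with COL16A1 (r = 0.652) and COL12A1 (r = 0.641), each with a permutation adjusted p of 0.00507. COL6A6 and COL28A1 had r = 0.928 but rho = 0.389 (permutation adjusted p = 0.00816 and 0.205), and r = 0.166 without 2 tumours, so the relation rests on DOS.110 and DOS.115.

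The genes whose tumour pattern was most like a chain's were taken from all named genes by Pearson's r over 29 tumours, as a description without a test. For COL4A1 these were COL4A2 (r = 0.978), CDH5 (0.935), ROBO4 (0.926), SH2D3C (0.924) and PCDH1 (0.923). For COL15A1 the nearest were ARHGAP25 (0.850), KLHL5 (0.834), STIM2 (0.834), TESPA1 (0.831) and HCLS1 (0.831). All 5 had a higher r with COL15A1 than the vessel marker PLVAP (0.788). For COL11A1 the nearest were MMP23B (0.741), P3H3 (0.698) and FIBIN (0.694). COL12A1 was nearest to ADAM12 (0.715) and CREB3L2 (0.699). For COL1A2 the nearest was SPARC (0.820), a collagen-binding protein of bone, and for COL13A1 it was MAP2 (0.809), for COL22A1 MEF2C (0.759) and for COL14A1 TMEM176A (0.862). The last 4 chains were added to the list after the data were seen.

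Of 53 other genes of collagen production and binding that passed the filter, 4 rose in the lines, 9 fell and 40 did not pass the limma test, where 16.4% of all genes were called. Of 21 biosynthesis genes 1 rose and 2 fell, of 12 maturation genes 1 rose and 2 fell, of 8 receptors 1 rose and 2 fell, of 6 binding proteoglycans 2 fell, and of 6 regulators 1 rose and 1 fell. P4HA3, a prolyl hydroxylase subunit, had 51.5 and 163 FPKM in OSCA.8 and OSCA.78, against a tumour range of 5.11 to 66.6 FPKM, and rose by 2.21 log2 units (limma adjusted p = 0.0240). SERPINH1 had 893 and 1301 FPKM in OSCA.8 and OSCA.78, against a tumour median of 962 FPKM, and did not pass. OMD, an osteoadherin proteoglycan of bone, had 12.002 and 0.709 FPKM in OSCA.8 and OSCA.78, against a tumour median of 193 FPKM, and fell by 5.14 log2 units (limma adjusted p = 0.0016). DDR1, a collagen receptor kinase, had 14.1 and 45.7 FPKM in OSCA.8 and OSCA.78, against 2.19 to 16.9 FPKM in tumours, and rose by 1.75 log2 units (limma adjusted p = 0.00634).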

How the data were processed

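One table of 34 libraries and 23988 gene rows was used. Its header names no unit, and the deposited values were read as FPKM, since the submitters' processing notes list TopHat2 2.0.13, Cufflinks 2.2.1, FastQC 0.11.2 and assembly canFam3. The order of steps, the annotation and what was masked were not given in the sources used here. Of the rows, 9653 carry no symbol and were counted only among all genes. Values were used as log2(FPKM + 1). A row was kept when 2 or more libraries reached 1 FPKM (15165 rows), and these were tested with limma 3.58.1 (R 4.3.3, trend and robust, Benjamini-Hochberg). The fit was tested on simulated data. Correlations used permutation in Python 3.11.15 (scipy 1.17.1). Alternatives were the pseudocount (0.1), no filter, upper quartile and quantile scaling, leaving out a line or alike tumours, and a block on title numbers. The block was fitted on OSCA.8, OSCA.78, DOS.8 and DOS.78 only. Full values were given for the 2 most abundant chains of each class, called chains, the 6 most variable and those outside all tumours in a single library. The chains, gene lists and pairs were chosen with earlier results of these data known. No sequence or coordinate is printed. The marker sums include a bone marker gene whose own level is not reported here.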

Additional observations from a re-analysis of the deposited data

How the results depend on the processing

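The count of called chains was 7 and depended on the lines: leaving out each line in turn left 1 to 4 called chains, 0 to 2 higher and 1 to 2 lower. A pseudocount of 0.1 left 4 called and 0 higher (limma; 3 higher at an unadjusted p under 0.05). With title numbers as a replicate block, the fit held OSCA.8, OSCA.78, DOS.8 and DOS.78 alone and dropped every other tumour. In that fit 0 chains were called, 0 higher and 0 lower, as were 0 of all genes (limma, with 8 chains and 3205 genes at an unadjusted p under 0.05). Because the tumours changed and so few libraries were left, it does not show what blocking alone does to the main comparison. Only 2 shared numbers stand behind that block, so the pairing is not established; deviations from the tumour mean correlated at r = 0.195 between OSCA.8 and DOS.8 and 0.164 between OSCA.78 and DOS.78 over all genes. The other alternatives left 5 to 7 chains called, and with no filter COL19A1 was among them. In the osteoblast culture 4 of 9 chains met the rule with quantile normalisation, and the metastasis had 1 chain past 2 log2 units against DOS.6 alone. Of 10 pairs with COL1A2 and COL9A1 as stand-ins, 5 passed.

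Signs reversed for chains that did not pass the test: COL4A6 was 0.084 with pseudocount 0.1 and 0.15 with quantile normalisation. Leaving out each line in turn, COL7A1 ranged from -0.55 to 0.048, COL6A2 from -1.41 to 0.088, COL8A2 from -3.12 to 0.96 and COL25A1 from -0.11 to 0.39, the values without OSCA.8 being reversed. Under the block, with DOS.8 and DOS.78 as the only tumours, COL4A1 was 0.021, COL4A2 0.57, COL6A1 0.042, COL6A2 0.021 and COL8A1 -0.59. Without the 2 farthest tumours, r was 0.0673 for COL8A1 with COL8A2 and -0.0752 for COL12A1 with POSTN. The cause was not tested. Of the alternative values for the 7 called chains, 52 stayed past the threshold and 25 did not, COL5A3 under the block included (-2.58, limma adjusted p = 0.149). For the 11 called pairs, 64 stayed and 2 did not. All results without DOS.32 and DOS.115, the fit without DOS.8 and DOS.78, the stand-in pairs and the 435 pairs were chosen after seeing the data. Depth is unknown, so no counting error can be given for low values.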
